A study of Mus musculus with 65 samples.

Results

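RNA was compared between the cerebella of MEF2A conditional knockout mice (MEF2A cKO) and of their own controls (MEF2A Control), with 4 libraries in each group, 8 of the 24 RNA libraries and of the 65 samples of the series. The libraries were chosen by their labels alone, and all 15469 genes of the deposited RNA table were read in each. Every mouse is labelled as C57BL/6, female and 22 days old, and total RNA was taken from the cerebellum. The knockout group carries a conditional deletion of Mef2a; the Cre driver, the exons removed, the alleles of the controls and whether the mice had run on the rotarod named in the sample titles are not stated by the labels. Since RNA came from whole cerebellum, fewer cells of a type and less RNA per cell cannot be told apart. Nothing states that each library is 1 mouse, so p-values measure a spread between libraries. For RNA that spread was estimated over all 24 libraries, with 15 residual degrees of freedom. The MEF2A libraries alone would give 3. The MEF2D single knockout and the MEF2AD double knockout, each with its own Controls and 4 libraries a group under the same strain, sex and tissue labels, serve below for comparison. Controls and knockouts with the same replicate number deviated together and were compared as 4 pairs.

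MEF2A is 1 of the MEF2 transcription factors, which bind A/T-rich DNA as dimers and are known in neurons for coupling calcium signals to transcription, through calcineurin, class IIa histone deacetylases and NFAT factors. Cerebellar granule neurons, the most numerous neurons of the mouse brain, express Mef2a and Mef2d strongly. The study set out to learn how far MEF2A and MEF2D stand in for each other, and the MEF2A single knockout shows which RNA levels differ when MEF2D is still present.

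The libraries held between 9178139 and 14260333 reads in genes, so that 1 read was worth 0.0704 to 0.108 CPM (a counts-per-million unit). Pair 2 went against its label. Xist, the RNA of the inactive X chromosome of female cells, was at 1.95 CPM in Control 2 and 1.48 CPM in cKO 2, against 1001 to 1310.1 CPM in the other 6 libraries. The 4 Y-linked genes (Ddx3y, Eif2s3y, Kdm5d and Uty) summed to 258 and 244 CPM in these libraries and to at most 0.354 CPM in the others. Both members of the pair carried Y-linked RNA, so the groups held 1 such library each, and the count of called genes is also given without pair 2. In all, 7 of the 24 RNA libraries labelled female held Y-linked RNA and under 10 CPM of Xist. In the lines used for comparison these were MEF2D Control 3 and cKO 3, and MEF2AD Control 3, cKO 1 and cKO 4. They held 178 to 237 CPM from the Y-linked genes. MEF2AD Control 4 held 15.4 CPM from these genes beside 1405 CPM of Xist. Pair 1 stood apart in activity-regulated genes, whose 33 measured members summed to 1869 CPM in Control 1 and 1818 CPM in cKO 1 and to between 975 and 1123 CPM elsewhere. Choroid plexus and ependymal markers (23 measured, none at 0 in all 8 libraries) summed to 400.0, 1074, 1819 and 1099 CPM in Controls 1 to 4 and to 1588, 1416, 1158 and 2804 CPM in cKO 1 to 4. They were higher in the knockout in pairs 1, 2 and 4 and lower in pair 3.

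**Figure D1:**
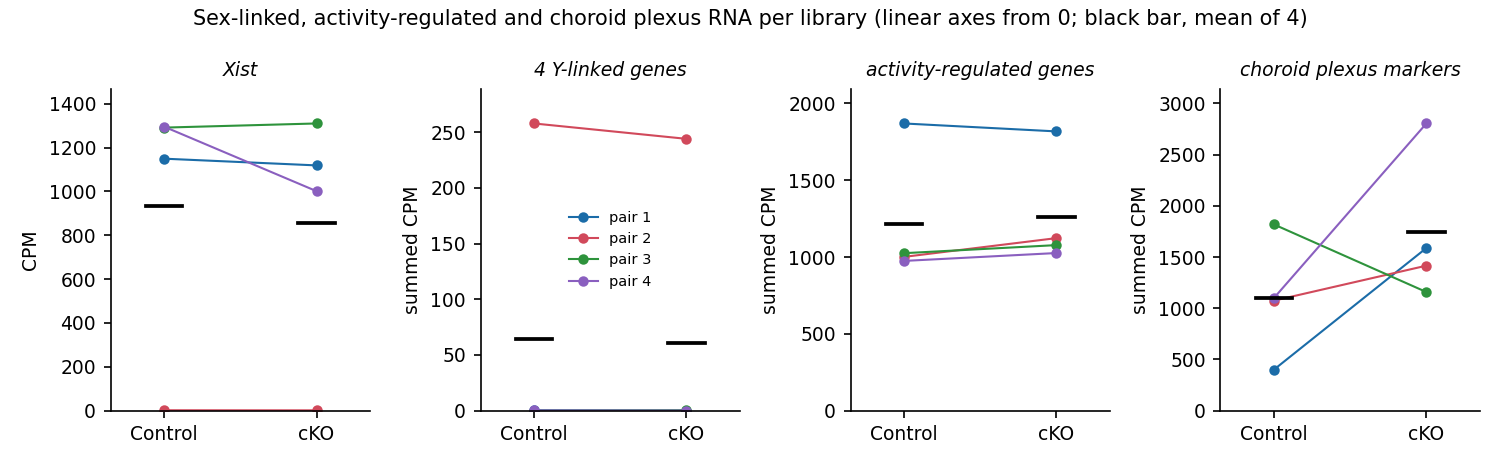
RNA per library in CPM for Xist, the 4 Y-linked genes, the activity-regulated genes and the choroid plexus markers, with Control on the left and cKO on the right of each panel, a line for each pair and black bars for the means of 4. Both libraries of pair 2 lack Xist, both of pair 1 are high in activity-regulated genes, and choroid plexus RNA runs from 400.0 to 2804 CPM.

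The targeted gene itself was lower in every knockout library. Mef2a (ENSMUSG00000030557; GRCm38.p6 chromosome 7, 67231163 to 67376456) was at 207, 219.9, 229.7 and 232 CPM in Controls 1 to 4 and at 76.9, 97.8, 87.8 and 89.1 CPM in cKO 1 to 4. The groups did not overlap, and the knockout mean of 87.9 ± 8.60 CPM was 0.396 times the Control mean of 222 ± 11.2 CPM (SD, n = 4). On the log2(CPM + 1) scale Mef2a fell by 1.33 ± 0.05 (standard error; limma adjusted p = 1.17e-13). The value covers the whole gene, and the reads over single exons were not analysed here. Neither paralog was called: Mef2d was at 298 ± 30.4 CPM in Control and 297 ± 39.3 CPM in cKO, and Mef2c at 42.3 ± 4.13 and 42.5 ± 1.97 CPM (limma adjusted p = 0.99 for both). The log2 difference was -0.01 ± 0.05 for Mef2d and 0.01 ± 0.06 for Mef2c, and both groups overlapped.

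The Mef2a promoter carries a MEF2A peak, and the window is shown because peak and motif meet there. The RefSeq window of 250 bases before the annotated start is printed here 5′ to 3′ on the minus strand, chr7:67372851-67373108 of GRCm38.p6, up to the last base of the MEF2 motif, which is in capitals. The second sequence is the same window of Col13a1, chr10:61979109-61979358 on the minus strand. It is the only other gene with an adjusted p under 0.05 in the knockout whose RefSeq window holds the motif, and no MEF2A peak lies there.
Mef2a: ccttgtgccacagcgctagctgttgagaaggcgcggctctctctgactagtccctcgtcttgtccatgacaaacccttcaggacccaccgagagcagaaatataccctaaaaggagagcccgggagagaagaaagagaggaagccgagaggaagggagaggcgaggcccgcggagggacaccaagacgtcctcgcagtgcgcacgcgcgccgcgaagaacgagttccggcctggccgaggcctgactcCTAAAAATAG
Col13a1: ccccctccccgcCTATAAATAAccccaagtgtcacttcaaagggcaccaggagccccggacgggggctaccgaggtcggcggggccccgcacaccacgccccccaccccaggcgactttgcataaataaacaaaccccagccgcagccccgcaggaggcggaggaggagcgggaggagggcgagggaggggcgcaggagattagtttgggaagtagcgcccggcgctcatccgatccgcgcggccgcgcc
In Mef2a the motif CTAAAAATAG runs from 2 bases before the start to base 8 of the transcript and lies inside the deposited MEF2A peak (chr7:67372690-67373035) and a MEF2D peak. In Col13a1 the motif CTATAAATAA lies at positions -238 to -229 from the start. The motif was searched on both strands. Of 32851 RefSeq windows of 300 bases, 1047 (3.19%) hold it, as do the windows of 248 of the 11570 measured genes that have one (2.14%) and of 2 of the 42 such called genes (4.76%). A match is a description and not a binding site. Acetylated histone H3 at lysine 27 (H3K27ac), which marks active regulatory DNA, was measured in other libraries of this line at the site chr7:67372576-67373229, which covers the same start. Scaled to the reads of each library (RPM, a reads-per-million unit), it held 22.9 ± 1.58 in Control and 19.2 ± 2.61 in cKO (SD, n = 3; edgeR log2 -0.17, edgeR adjusted p = 0.739). For its log2 folds edgeR rescaled the libraries over the tested sites (TMM scaling), so they need not equal the ratio of the RPM means.

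In the whole table, 59 of 15469 genes (0.381%) had an adjusted p under 0.05, the threshold used for every gene called here, and 1402 (9.06%) had an unadjusted p under 0.05. Of the 59, 30 were higher (0.194%) and 29 lower (0.187%) in the knockout. All 59 moved the same way in 4 of 4 pairs, which is no separate support, since these pairs were the blocks of the test that chose them. On the log2(CPM + 1) scale 5 genes rose and 4 fell by more than 1, and on the deposited log2 values, which add 0.5 reads in place of 1 CPM, 5 rose and 9 fell by more than 1. The added 1 CPM shrinks the folds of low genes: for 5 called genes (Tnn, Dbpht2, Zan, Neu2 and Gm12653) the deposited values gave a fold over 1.5 times as large. On the log2(CPM + 1) scale the median change was 0.37 among the higher and -0.56 among the lower genes. In 47 of the 59 the Control and knockout groups did not overlap, as in 3.72% of all genes. Leaving out a pair cost many calls: 18 genes were called without pair 1, 36 without pair 2, 31 without pair 3 and 30 without pair 4, in fits with fewer libraries. The same 18 genes were called in every one of these fits. They are Mef2a, Kcnh3, Prom2, Spag17os, Actl10, Col13a1, Necab3, Dnah11 and Svep1, which fell, and 1700112J16Rik, Elavl2, Gm12653, Adamts17, Gabra6, Clic1, Parva, Map1lc3a and Sult4a1, which rose.

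**Figure D2:**
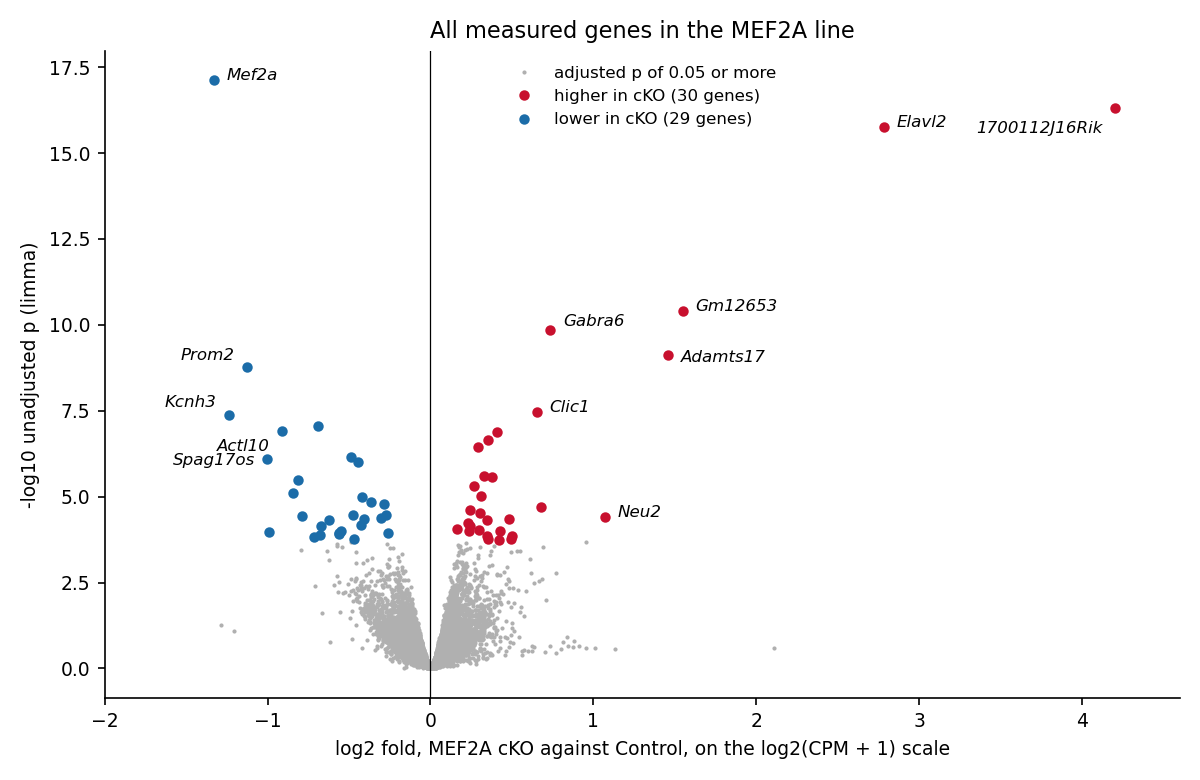
Each point is 1 of the 15469 genes, with its log2 fold in MEF2A cKO against Control on the x axis and -log10 of the unadjusted limma p on the y axis. The 30 higher and 29 lower genes are coloured, and Mef2a, 1700112J16Rik and Elavl2 lie far above the rest.

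The largest rise lay next to the deleted gene. 1700112J16Rik, a long intergenic noncoding RNA that ends 8627 bp from Mef2a (ENSMUSG00000097527; chromosome 7, 67204082 to 67222536), was nearly silent in Controls, with 0.443, 0.324, 0.52 and 0.191 CPM from 2 to 5 reads a library. It was at 26.6, 25.1, 22.1 and 22.8 CPM in the knockouts, from 255 to 356 reads. Its log2 fold was 4.2 ± 0.18 on the log2(CPM + 1) scale (limma adjusted p = 3.83e-13) and 5.92 on the deposited values, and the ratio of mean CPM was 65.3. Adamts17, which encodes a secreted metalloprotease and lies 77992 bp from Mef2a on the same side, also rose. It went from 4.16, 4.32, 3.95 and 3.62 CPM in Controls to 11.3, 16.1, 11.9 and 12.3 CPM in knockouts, 3.21 times the Control mean (log2 1.46 ± 0.14; limma adjusted p = 1.99e-06). The other 9 measured genes within 1 Mb of Mef2a were not called. Among them, Lysmd4 starts beside 1700112J16Rik, between it and Mef2a, and was at 24.2 ± 2.55 CPM in Control and 22 ± 1.1 CPM in cKO (log2 -0.13 ± 0.07; limma adjusted p = 0.651). On the far side, Lrrc28 (log2 -0.11), Ttc23 (0.23), Synm (-0.17) and the receptor gene Igf1r (-0.05) had adjusted p between 0.610 and 0.940 in limma, and Asb7, Lins1, Aldh1a3 and Lrrk1 beyond Adamts17 lay between -0.10 and 0.06.

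Both risen neighbours were also higher in the other line without MEF2A. In the line that lacks MEF2A and MEF2D together (MEF2AD, with its own Controls) 1700112J16Rik was higher by 3.40 ± 0.18 and Adamts17 by 1.39 ± 0.14 on the log2 scale (limma adjusted p = 2.06e-11 and 1.1e-06). In the MEF2D knockout line their log2 folds were 0.01 ± 0.18 and -0.02 ± 0.14. The difference between the MEF2A and MEF2D effects was 4.19 ± 0.25 for 1700112J16Rik and 1.48 ± 0.20 for Adamts17 (limma adjusted p = 4.98e-10 and 8.31e-04). Neither gene has a MEF2A peak within 5000 bp, and Adamts17 holds a MEF2D peak with 3 to 6 H3K27ac reads a library.

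**Figure D3:**
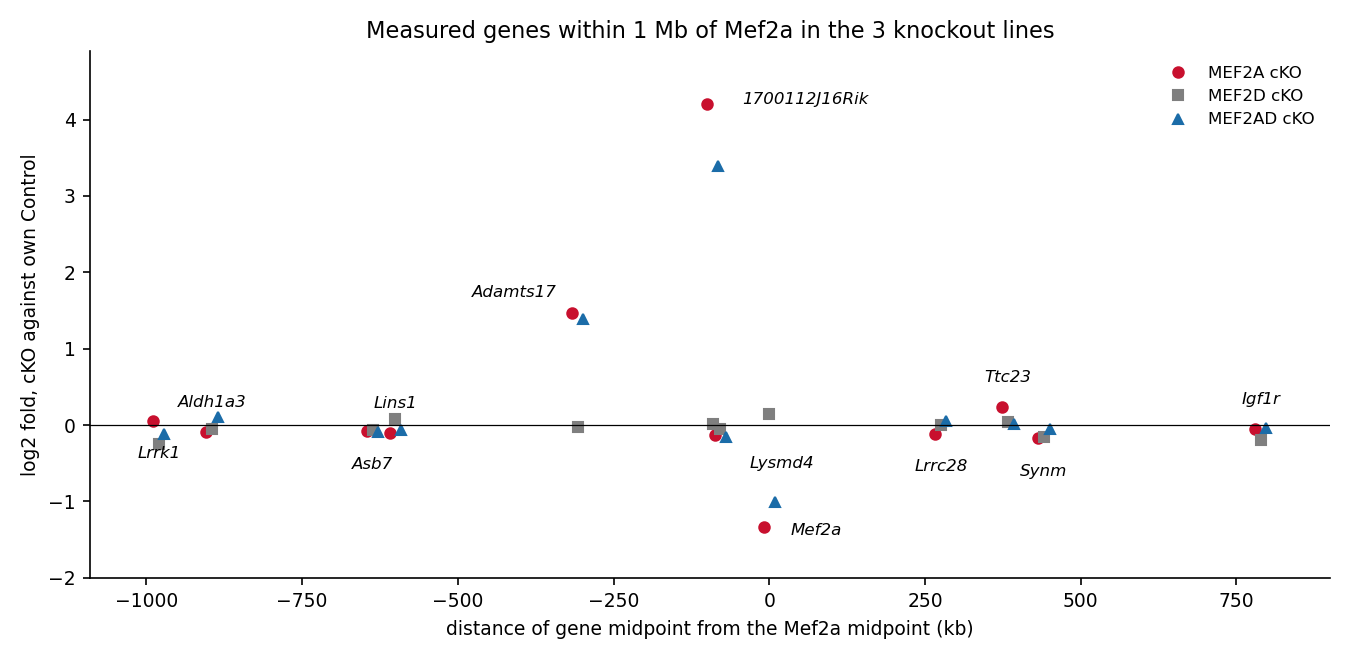
Log2 fold of the 12 measured genes within 1 Mb of Mef2a, plotted against the distance of each gene's midpoint from that of Mef2a in kb, for the MEF2A (circles), MEF2D (squares) and MEF2AD (triangles) knockouts against their own Controls. Mef2a is low and 1700112J16Rik and Adamts17 are high in the lines without MEF2A, and the other 9 genes lie near 0.

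Elavl2 rose more than any other gene outside the Mef2a region. It encodes a neuronal member of the Hu family of RNA-binding proteins (ENSMUSG00000008489; chromosome 4, 91211533 to 91400108). Its level was 33.8, 30.8, 35.2 and 30.5 CPM in Controls and 299, 175, 243 and 220.0 CPM in knockouts. Every knockout library stood above every Control, the mean ratio was 7.19, and pair 2 showed the smallest and pair 1 the largest change (log2 2.47 and 3.11). The fitted log2 fold was 2.79 ± 0.12 (limma adjusted p = 9.09e-13). Gm12653, a processed pseudogene within the bounds of Elavl2, rose with it by 1.55 ± 0.13 (limma adjusted p = 1.57e-07; 3.19 on the deposited values), from 1 to 6 reads in a Control library to 24 to 39 in a knockout library. Its reads cannot be told apart from those of Elavl2 transcripts, because no source states that strand was used. The nearest measured genes on either side of Elavl2 were not called: Dmrta1 was at 1.62 ± 0.389 and 1.25 ± 0.328 CPM, and Tusc1 at 3.09 ± 0.950 and 4.36 ± 1.10 CPM in Control and cKO (limma adjusted p = 0.749 and 0.352). Among 28 neuronal RNA-binding protein genes Elavl2 was the only one called (3.57%, beside 0.381% of all genes). Its relatives Elavl3 and Elavl4 had log2 folds of -0.20 each (unadjusted p of 0.0012 and 0.0026; limma adjusted p = 0.14 and 0.21) and Nova1 had 0.22 (limma adjusted p = 0.12). Like the gene lists below, this list was chosen with earlier results of these data known. The share of called genes in such a list is therefore a description and not a test.

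Gabra6 encodes the alpha6 subunit of the GABA-A receptor, a hallmark of mature cerebellar granule neurons. Controls held 863, 694, 755 and 775 CPM, and knockouts held 1374, 1132, 1273 and 1366 CPM. The groups did not overlap, and the level rose 1.67-fold (log2 0.74 ± 0.06; limma adjusted p = 4.45e-07). Gabrb2, which encodes a beta subunit of the same receptor and lies on the same chromosome, was not called, at 309.9 ± 19.0 CPM in Control and 295 ± 6.21 CPM in cKO (limma adjusted p = 0.743). Of 20 GABA and glycine receptor genes, 1 rose (5%, beside 0.381% of all genes) and 0 fell. Their median log2 fold was 0.02 beside -0.000576 over all genes. Of 28 mature granule neuron markers, Gabra6 alone was called (3.57%) and 19 lay below 0, with a median of -0.05.

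**Figure D4:**
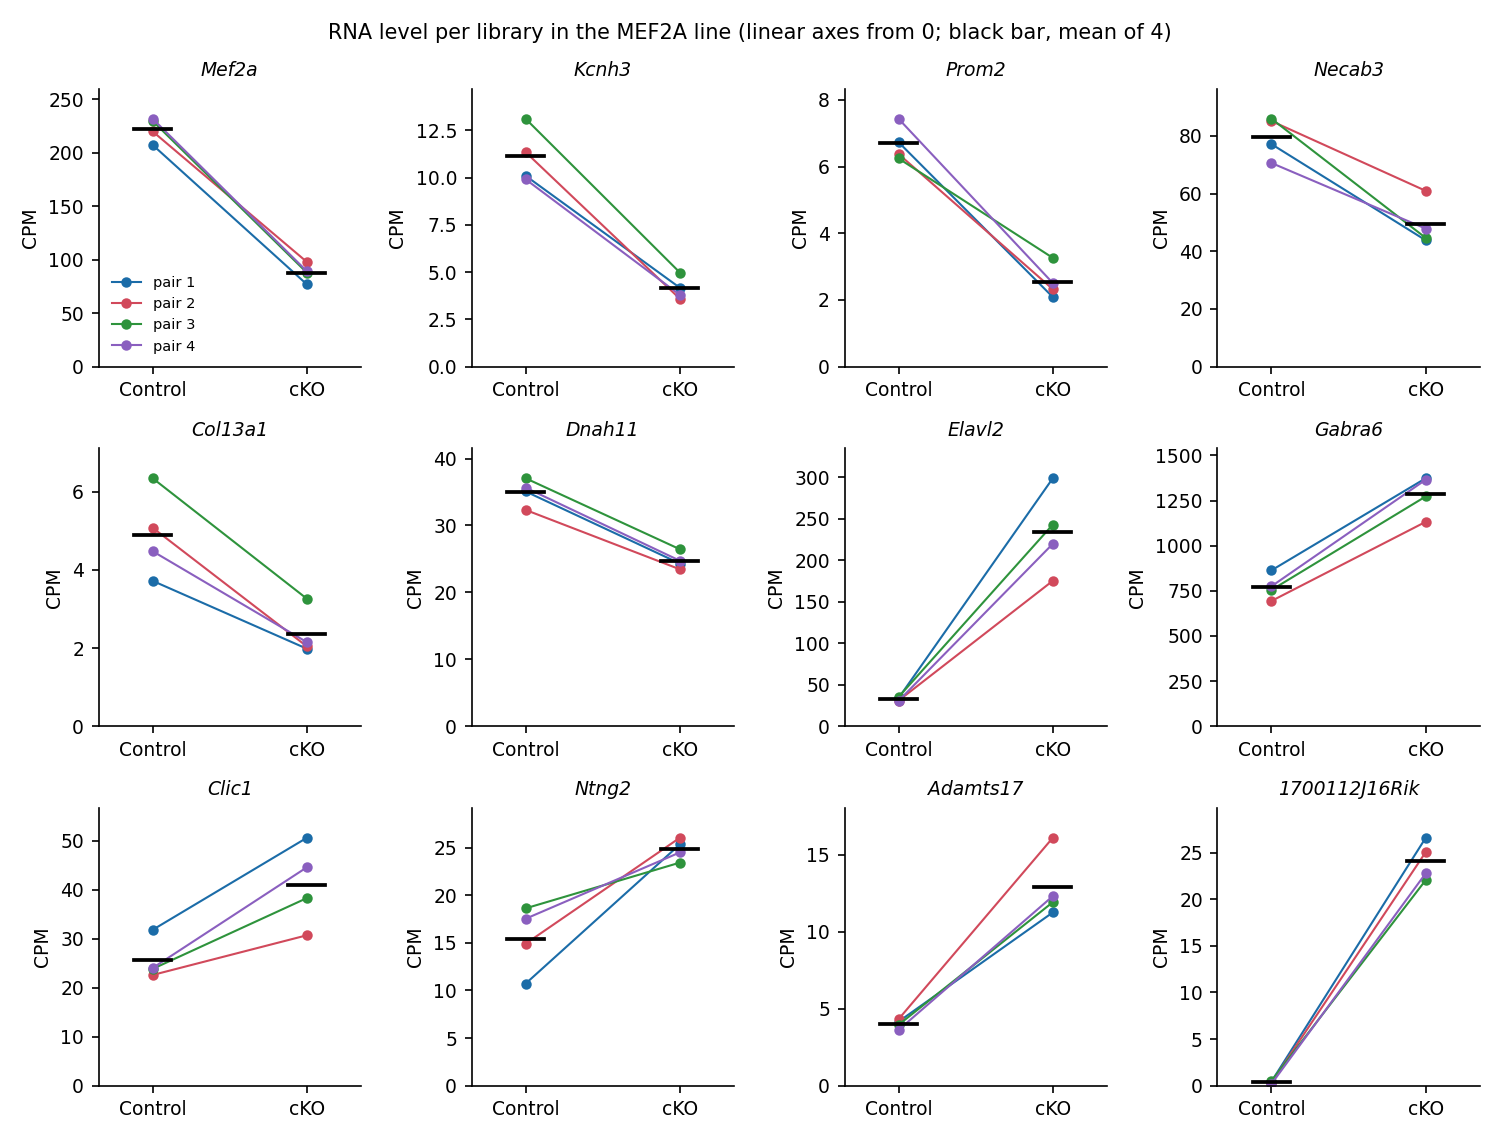
CPM of 12 genes in each library of the MEF2A line, with Control on the left and cKO on the right, a line for each pair and black bars for the means of 4. Mef2a, Kcnh3, Prom2, Necab3, Col13a1 and Dnah11 are lower, and Elavl2, Gabra6, Clic1, Ntng2, Adamts17 and 1700112J16Rik are higher in all 4 pairs.

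Among potassium channel genes, 2 of 50 fell (4%, beside 0.381% of all genes) and 0 rose. Kcnh3 encodes a voltage-gated potassium channel of the ether-a-go-go family (chromosome 15, 99224517 to 99242818). It went from 10.1, 11.3, 13.1 and 9.91 CPM in Controls to 4.17, 3.59, 4.98 and 3.80 CPM in knockouts, with no overlap. The mean ratio was 0.372 (log2 -1.24 ± 0.15; limma adjusted p = 7.37e-05). Kcnip3 encodes a calcium-binding protein that works both as a potassium channel subunit and as a transcriptional repressor, and it fell from 142 ± 4.48 to 117 ± 5.49 CPM (log2 -0.29 ± 0.05; limma adjusted p = 0.01). Its call was lost without pairs 1, 2 or 3 (limma adjusted p = 0.0987, 0.0511 and 0.0908). The 50 genes had a median log2 fold of -0.07, and 39 lay below 0. Kcnq3, an M-current subunit gene, had a log2 fold of 0.37 and an adjusted p of 0.072 in limma.

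Prom2, a membrane glycoprotein gene of the prominin family, is the neighbour of Kcnip3 on chromosome 2, 4859 bp away, and fell as well. Controls held 6.73, 6.38, 6.24 and 7.43 CPM against 2.09, 2.32, 3.26 and 2.51 CPM in knockouts. The groups lay apart by a wide margin (log2 -1.13 ± 0.11; limma adjusted p = 3.63e-06). Necab3, which encodes a neuronal EF-hand calcium-binding protein, and Actl10, an actin-like gene within its bounds, are another such pair. Necab3 was at 77.2, 85.2, 86.0 and 70.6 CPM in Controls and 43.8, 61.0, 44.6 and 47.9 CPM in knockouts (log2 -0.69 ± 0.09; limma adjusted p = 1.32e-04), and Actl10 fell from 9.25 ± 1.20 to 4.58 ± 1.59 CPM (log2 -0.91 ± 0.12; limma adjusted p = 1.68e-04). Their reads cannot be told apart where the genes overlap. Of the 57 called genes with a position, 13 lay within 1 Mb of another called gene, in 11 pairings of which 7 went the same way. In 3 of these pairings the genes overlap, and each of those went the same way. Others join Mef2a, 1700112J16Rik and Adamts17. The like share among all genes was not computed.

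Extracellular matrix and protease genes moved in both directions, with 2 of 48 higher and 2 lower (8.33% called, beside 0.381% of all genes). Their median log2 fold was -0.000415. Adamts17 is described above. Col13a1, a transmembrane collagen gene whose promoter window is printed above, was at 3.72, 5.08, 6.35 and 4.48 CPM in Controls and 1.98, 2.04, 3.26 and 2.15 CPM in knockouts. Its groups did not overlap and it fell by 0.81 ± 0.13 on the log2 scale (limma adjusted p = 0.00253). Tnn, which encodes the matrix glycoprotein tenascin-N, fell from 12 to 18 reads in a Control library to 2 to 7 in a knockout library (log2 -0.85 ± 0.14, or -1.90 on the deposited values; limma adjusted p = 0.00551), and its call was lost without pair 1 or 2 (0.0856 and 0.0511). Mmp17, a membrane-anchored metalloprotease gene, rose from 33.1 ± 5.53 to 44.7 ± 6.55 CPM with overlapping groups (log2 0.43 ± 0.09; limma adjusted p = 0.0334); it was not called when any 1 of the 4 pairs was left out (0.0856, 0.195, 0.177 and 0.135 for pairs 1 to 4). Svep1, a large extracellular protein gene outside the list, fell from 55.8 ± 4.76 to 40.6 ± 2.54 CPM (log2 -0.45 ± 0.07; limma adjusted p = 9.17e-04).

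Of 29 motile cilium genes 2 fell (6.90%, beside 0.381% of all genes) and 0 rose. The median of the list was 0.04 and 18 lay above 0. Dnah11, an axonemal dynein heavy chain gene, was at 35.1, 32.3, 37.0 and 35.6 CPM in Controls and 24.3, 23.4, 26.4 and 24.7 CPM in knockouts. The groups did not overlap, and the 4 pairs gave nearly equal changes (log2 -0.49 ± 0.07; limma adjusted p = 7.17e-04). Ccdc63, which is known in mouse for a part in sperm flagella, fell from 19.9 ± 2.74 to 13.1 ± 1.36 CPM (log2 -0.56 ± 0.12; limma adjusted p = 0.038) and lost its call without any 1 of pairs 1 to 4 (0.265, 0.0633, 0.136 and 0.225). The summed choroid plexus and ependymal markers were higher in the knockout in 3 of 4 pairs, as given above. Ttr, a member of that list, made up 4.87 of the 400.0 CPM in Control 1 and 1478 of the 2804 CPM in cKO 4. The part of ciliated cells in these falls was not tested.

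Some lists held genes tied to MEF2 by background knowledge. Of 29 MEF2 cofactor and regulator genes 1 (3.45%, beside 0.381% of all genes) was called, Nfatc2, a calcineurin-dependent transcription factor gene. It fell from 32.9, 31.2, 30.4 and 34.1 CPM in Controls to 23.1, 22.8, 26.7 and 22.6 CPM in knockouts. The groups did not overlap (log2 -0.42 ± 0.07; limma adjusted p = 0.00645), and the call was lost without pair 1 or 4 (0.0856 and 0.0953). Nfatc1 had a log2 fold of -0.28 and an adjusted p of 0.23 in limma. Of 19 sarcomere and muscle genes 1 (5.26%) was called, Myom1. This gene, which encodes the M-band protein myomesin, fell from 4.27 ± 0.530 to 2.59 ± 0.575 CPM (log2 -0.56 ± 0.12; limma adjusted p = 0.0355), a call lost without any 1 of pairs 1 to 4 (0.202, 0.085, 0.162 and 0.194). None of 22 textbook MEF2 targets was called in limma, with 1 at an unadjusted p under 0.05, Klf6, a transcription factor gene at a log2 fold of 0.29 (limma adjusted p = 0.25). None of 33 activity-regulated genes was called either, with 3 at an unadjusted p under 0.05.

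Among synaptic adhesion and organizer genes 1 of 47 fell (2.13%, beside 0.381% of all genes) and 0 rose. Flrt3, a ligand of latrophilins, was at 52.4, 43.1, 43.6 and 37.6 CPM in Controls and 41.0, 24.8, 32.3 and 29.0 CPM in knockouts. Its groups overlapped, since cKO 1 stood above Control 4, but each knockout lay below its own Control (log2 -0.48 ± 0.09; limma adjusted p = 0.0174). The call was lost without any 1 of pairs 1 to 4 (0.0635, 0.153, 0.0703 and 0.0532). In the axon guidance list 1 of 57 (1.75%) rose, Ntng2, which encodes the membrane-anchored netrin-G2. It was at 10.7, 14.9, 18.6 and 17.5 CPM in Controls and 25.3, 26.0, 23.4 and 24.5 CPM in knockouts, with Control 1 the lowest (log2 0.68 ± 0.12; limma adjusted p = 0.0112), and was not called without pair 1 or 2 (0.178 and 0.0797). The overlapping transcript 6530402F18Rik rose by 0.50 ± 0.11 (limma adjusted p = 0.0464, lost without pairs 1, 2 or 4 at 0.343, 0.187 and 0.183). Barhl1, a homeobox gene of granule cell progenitors 276742 bp from Ntng2, was the 1 called member (4%) of 25 progenitor and immature granule markers. It rose from 17.5 ± 2.14 to 24.9 ± 2.43 CPM (log2 0.48 ± 0.10; limma adjusted p = 0.0193) and was not called without pairs 1, 3 or 4 (0.214, 0.0908 and 0.107).

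Of the other rises that held with any 1 pair left out, 4 were modest. Clic1, an intracellular chloride channel gene, was at 31.8, 22.6, 23.8 and 24 CPM in Controls and 50.6, 30.7, 38.3 and 44.6 CPM in knockouts. Control 1 stood above cKO 2, so the groups overlapped, while each pair showed a rise (log2 0.65 ± 0.08; limma adjusted p = 6.8e-05). Parva, which links integrins to actin, rose from 98.9 ± 6.25 to 131 ± 5.40 CPM (log2 0.41 ± 0.05; limma adjusted p = 1.75e-04). Map1lc3a, an autophagosome membrane protein gene, rose from 99.4 ± 11.7 to 127 ± 18 CPM (log2 0.35 ± 0.05; limma adjusted p = 2.76e-04). Sult4a1, a brain sulfotransferase family gene, rose from 182 ± 9.55 to 224 ± 16.6 CPM (log2 0.29 ± 0.04; limma adjusted p = 3.91e-04). Each of these 4 kept its call when any 1 pair was left out.

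By chromosome, the share of genes called ran from 0 of 713 on chromosome 3 to 10 of 1214 (0.824%) on chromosome 2. It was 0.763% on chromosome 18 and 0.75% on chromosome 4. On the X chromosome 4 of 522 genes were called (0.766%, beside 0.381% of all genes), and all 4 rose. They are the adhesion gene L1cam (log2 0.27 ± 0.04), the membrane-cytoskeleton linker gene Msn (0.33 ± 0.05), the clathrin adaptor gene Ap1s2 (0.31 ± 0.06) and the nucleotide synthesis gene Prps1 (0.30 ± 0.06), with limma adjusted p of 0.0037, 0.00219, 0.0155 and 0.0329. L1cam was at 201, 206, 208 and 203 CPM in Controls and at 250, 255, 264 and 221 CPM in knockouts. Without pair 2, L1cam, Msn and Ap1s2 kept an adjusted p of 0.0395, 0.0272 and 0.0462 and Prps1 was at 0.0633. Without pair 1 the values were 0.0635, 0.0562, 0.179 and 0.0667 in the same order. L1cam also lost its call without pair 3 (0.0562), Ap1s2 without pair 3 or 4 (0.0509 and 0.0874) and Prps1 without either of these (0.217 and 0.258). At the low end of the table, Neu2, a sialidase gene outside the naming rule and chosen after its values were seen, had 0 to 3 reads in a Control library and 12 to 22 in a knockout library (limma adjusted p = 0.0188, and 0.207, 0.0549 and 0.0953 without pairs 1, 2 and 4).

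The 33 cell type marker and pathway lists held 818 measured genes, of which 16 were called (1.96%, beside 0.381% of all genes); the lists were chosen with earlier results known. Of the lists, 12 held a called gene and 21 held none. None of 26 Purkinje cell markers was called in limma, with 2 at an unadjusted p under 0.05; 24 lay below 0, and the median log2 fold was -0.07. The 22 oligodendrocyte markers had a median of -0.06 with 20 below 0, and the 25 glutamate receptor genes had a median of -0.10 with 22 below 0, again with no call in limma and 0 and 5 at an unadjusted p under 0.05. The 37 nuclear respiratory chain genes lay the other way, with 35 above 0, a median of 0.08 and 0 calls in limma (3 at an unadjusted p under 0.05). Genes of a list share libraries and are not replicates. The choroid plexus markers had the highest median, 0.60, with 0 of 23 called in limma and 0 at an unadjusted p under 0.05.

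Of the 59 genes, 56 had the same sign in the MEF2D knockout line, against 60.8% of all genes. The lines share no library, but their effects came from 1 fit with a residual spread per gene that all lines share. Calls in different lines are therefore not independent. In MEF2D cKO 916 genes were called (5.92%), and 45 of the 59 were among them in the same direction, which is 76.3% of the 59 and 4.91% of the 916. In MEF2AD cKO 434 were called (2.81%), 30 of the 59 in the same direction (50.8% of the 59 and 6.91% of the 434) and 2 in the opposite one. Those 2 are Clic1, at 0.65 ± 0.08 in MEF2A cKO and -0.80 ± 0.08 in MEF2AD cKO, and Synpo, an actin-associated synaptic protein gene, at -0.36 ± 0.07 and 0.66 ± 0.07. Synpo lost its call in MEF2A cKO without pair 1 or 2 (limma adjusted p = 0.138 and 0.0511). In all, 26 genes were called in the same direction in all 3 lines, Elavl2, Gabra6, Prom2, Necab3, Col13a1, Dnah11 and Parva among them. The log2 folds of Elavl2 in the MEF2A, MEF2D and MEF2AD lines were 2.79 ± 0.12, 2.85 ± 0.12 and 1.17 ± 0.12, and those of Gabra6 were 0.74 ± 0.06, 0.88 ± 0.06 and 0.37 ± 0.06. The genes called in neither other line were 8, namely Dbpht2, Rasal1, Slc37a1, Dsc2, Rbx1, Rps6kl1, Barhl1 and Neu2. None of the 8 was called in the test below of the difference between the MEF2A and MEF2D effects. In MEF2D cKO Slc37a1 was at -0.51 ± 0.16 and Rasal1 at -0.46 ± 0.15 (limma adjusted p = 0.0543 and 0.0768), while Dsc2 was at -0.02 ± 0.10. Dbpht2 and Dsc2 lost their calls in MEF2A cKO without any 1 of the 4 pairs.

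**Figure D5:**
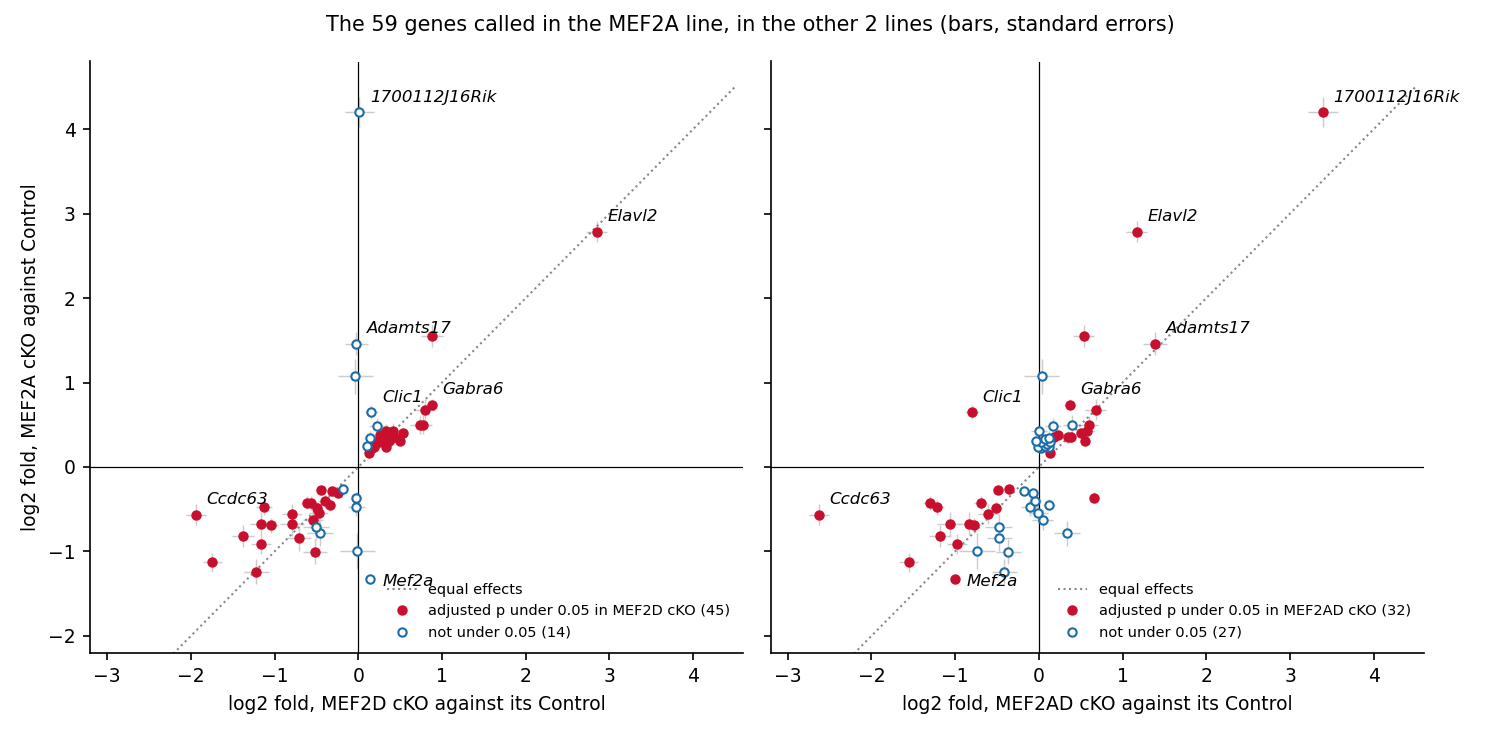
Log2 fold of the 59 called genes in MEF2A cKO (y axis) against that in MEF2D cKO (left) and MEF2AD cKO (right), each against its own Control, with standard errors as bars and a dotted line of equal effects. Filled points are called in the other line, 45 on the left and 32 on the right, and 1700112J16Rik and Adamts17 lie near 0 on the x axis on the left.

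The difference between the MEF2A and MEF2D effects was tested across all genes and called for 9 (0.0582%), 8 above 0 and 1 below. Of these, 4 belong to the 59: Mef2a (-1.47 ± 0.07), 1700112J16Rik, Adamts17 and Ccdc63. Ccdc63 fell by 0.56 in MEF2A cKO and by 1.94 in MEF2D cKO, a difference of 1.38 ± 0.17 (limma adjusted p = 3.06e-04). The other 5 were lower in MEF2D cKO and were not called in MEF2A cKO in the fit over 24 libraries. Ncald, a neuronal calcium sensor gene, was at 145 ± 9.97 CPM in MEF2A Control and 153 ± 10.2 CPM in cKO, and its effect differed from that in MEF2D cKO by 1.04 ± 0.16 (limma adjusted p = 0.00377). Igfbp5, a secreted binder of insulin-like growth factors, was at 324, 328, 327 and 372 CPM in MEF2A Controls and 271, 280.4, 254 and 244 CPM in knockouts. Its groups did not overlap, its adjusted p was 0.213 in limma, and it was called (0.00805) when the MEF2A libraries were fitted alone. Its log2 difference of -0.36 ± 0.11 stood 0.81 ± 0.15 above that in MEF2D cKO (limma adjusted p = 0.0452). Ppp1r1a, a protein phosphatase inhibitor gene (0.89 ± 0.16), Plekho1 (0.61 ± 0.09) and the sialomucin gene Podxl2 (0.48 ± 0.09) completed the set, with limma adjusted p of 0.0333, 0.00377 and 0.0333. Genes outside these 9 were not shown to differ between the lines.

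Binding was deposited as 1 list of 203 MEF2A and 1 of 1388 MEF2D peaks, with no value per library. Of 14839 genes with a position, 123 lay within 5000 bp of a MEF2A peak. Of these, 3 were called lower (Peak1, Igsf21 and the deleted gene Mef2a itself) and 0 higher, beside 0.187% and 0.194% of all genes. Of the same 123 genes, 80 (65.0%) had a log2 fold below 0, against 49.6% of all genes with a position. Of the 822 genes near a MEF2D peak, 7 fell, 4 rose and 64.7% lay below 0, and 169 of the MEF2A peaks overlap a MEF2D peak. A MEF2D peak lay within 5000 bp of 19.3% of the called genes with a position and of 5.54% of all genes with a position. Peak1, a pseudokinase scaffold gene, was at 174, 139, 159 and 174 CPM in Controls and 137, 100.1, 135 and 110.2 CPM in knockouts. The groups did not overlap (log2 -0.43 ± 0.09; limma adjusted p = 0.0251), and the call was lost without pairs 1, 2 or 4 (0.108, 0.124 and 0.257). Igsf21, a synaptic adhesion gene, fell from 105 ± 4.29 to 87.7 ± 4.13 CPM (log2 -0.26 ± 0.06; limma adjusted p = 0.0357), a call lost without any 1 of pairs 1 to 4 (0.118, 0.154, 0.121 and 0.225). The other called genes near a MEF2D peak, 8 in all, were Ccdc63, Dnah11, Nfatc2 and Ap3m2, which fell, and Pcbp3, Ntng2, Gabra6 and Adamts17, which rose.

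H3K27ac at the bound sites gave a single call in this line. Of 1371 sites tested in 3 Control and 3 cKO libraries of 14194272 to 21746396 reads, 1 was called by edgeR (0.0729%), with 110 at an unadjusted p under 0.05. That site, chr2:79569664-79570030, held 29, 15 and 24 reads in Controls and 48, 57 and 86 in knockouts (log2 1.21, edgeR adjusted p = 0.0154). The count was 0 with DESeq2, with scaling to library totals and without Control 2, Control 3 or cKO 3. Its nearest measured gene, Ssfa2, 18833 bp away, had an RNA log2 fold of 0.11 (limma adjusted p = 0.734). In all, 12 sites lay within 5000 bp of 11 called genes, and none of the 11 that could be tested was called, the lowest edgeR adjusted p being 0.351. Igsf21, whose RNA fell, has 2 sites, and they went in opposite directions without a call. The site chr4:140204878-140205160 held 2.04 ± 0.283 RPM in Control and 2.92 ± 0.284 in cKO (SD, n = 3; edgeR log2 0.57, edgeR adjusted p = 0.351). The site chr4:140192350-140192566, where the MEF2A peak of this gene lies, held 7.88 ± 0.861 and 6.75 ± 0.948 RPM (edgeR log2 -0.13, edgeR adjusted p = 0.876). At the Gabra6 site the values were 4.8 ± 0.242 and 4.38 ± 0.478 RPM (edgeR log2 -0.06, edgeR adjusted p = 0.947), beside an RNA that rose 1.67-fold. Here too the log2 folds follow TMM scaling and not the RPM means.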

How the data were processed

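Total RNA of 8 cerebellar libraries was sequenced. The build mm10 and the tools Bowtie2 2.3.4.2, STAR 2.6 and MACS2 are named, without roles, per the submitters' processing notes. No label names the counting tool or the use of strand. The RNA values are log2 CPM as the authors deposited them, per the file headers and values, with 0.5 reads added. Undoing the transformation gave whole reads for 100% of values, within 0.05 reads. Effective library sizes were 0.984 to 1.02 times the summed reads. Of 15560 entries, 91 repeats were dropped.

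CPM was recomputed without the added reads, and log2(CPM + 1) was fitted with limma-trend (limma 3.58.1, R 4.3.3) over all 24 RNA libraries, with 4 pair blocks and a knockout effect in the MEF2A line and group means in the MEF2D and MEF2AD lines (15 residual degrees of freedom). P-values were adjusted by Benjamini-Hochberg over 15469 genes at 0.05, with no filter. Same-numbered libraries of the MEF2A line deviated together (Pearson r 0.197 to 0.503 over 14665 genes, against -0.285 to 0.055 for other numbers), which did not hold for every pair of the other lines. H3K27ac values are counts of reads per site, deposited by the authors without normalization, and went into edgeR 4.0.16, with its quasi-likelihood test, TMM scaling and low-count filter. Peak lists were deposited as positions without libraries and are given from 1.

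Errors beside CPM are SD over libraries and errors beside log2 folds are standard errors. Positions and promoter windows are RefSeq GRCm38.p6; positions were found through Entrez identifiers for 13660 genes and through symbols for 1179, with 630 left without one, and 11570 had a promoter window. Named genes are the Mef2 genes, the 20 largest rises and 20 largest falls among called genes with a mean of at least 1 CPM, genes near MEF2A peaks, genes within 1 Mb of Mef2a, neighbours of Elavl2 and Gabra6, up to 4 genes a list, and genes that differ from the MEF2D effect. Members, lists and tests were chosen with earlier results of these data known. Not used were 104 columns of per-sample values. DESeq2 1.42.0 and edgeR on recovered reads, other pseudocounts, scalings, filters, blocks and left-out libraries were tried. The tests were checked on simulated data.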

Additional observations from a re-analysis of the deposited data

Results flagged for a closer look

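Among 126 groups of 4 values tested with Dixon's criterion, 12 held a library far from the other 3, and chance alone flags about 1 in 20 groups. In Control 1 the activity-regulated genes summed to 1869 CPM, against 975 to 1025 CPM in the other Controls, and in cKO 1 to 1818 CPM, against 1026 to 1123 CPM. Control 2 held 1.95 CPM of Xist, against 1150 to 1296 CPM. The 4 Y-linked genes summed to 258 CPM in Control 2 and 244 CPM in cKO 2, and to at most 0.354 CPM in the other libraries.

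Of called genes, Col13a1 stood high in cKO 3, at 3.26 CPM against 1.98 to 2.15 CPM. In cKO 2, Slc37a1 was at 4.29 CPM against 2.09 to 2.36 CPM, Rasgef1b at 4.22 CPM against 2.79 to 2.83 CPM, and Myom1 at 3.45 CPM against 2.23 to 2.40 CPM. Nfatc2 was at 26.7 CPM in cKO 3 against 22.6 to 23.1 CPM. In Control 1, Rgl3 was low at 67.5 CPM against 85.2 to 88.7 CPM, and Clic1 was high at 31.8 CPM against 22.6 to 24 CPM.

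The effect in MEF2A cKO differed from that in MEF2D cKO for 9 genes, by the test of the difference given above. The difference in log2 fold was 4.19 for 1700112J16Rik, 1.48 for Adamts17, 1.38 for Ccdc63, 1.04 for Ncald, 0.89 for Ppp1r1a, 0.81 for Igfbp5, 0.61 for Plekho1, 0.48 for Podxl2 and -1.47 for Mef2a.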

How the results depend on the processing

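Mef2a kept its call and direction under each alternative run, with log2 folds from -1.39 to -1.27. The count of 59 called genes was 44 without the pairing, 57 with a pseudocount of 0.5 CPM or with a filter at a mean of 1 CPM, 62 on the deposited log2 values, 59 with TMM scaling, 41 with edgeR and 75 with DESeq2 on recovered reads (3 genes had no adjusted p). Of the 59 genes, 42 were also called without the pairing, 41 with edgeR and 54 with DESeq2. With a replicate block in all 3 lines 116 genes were called, 58 of the 59 among them, and with a replicate block and the MEF2A libraries alone 110, 51 of the 59 among them. Leaving out 1 pair gave 18 to 36 calls, and leaving out 1 library without the pairing gave 23 to 52, namely 34, 30, 27 and 32 without Controls 1 to 4 and 25, 52, 45 and 23 without cKO 1 to 4. The 9 differences from the MEF2D effect became 25 with a replicate block in all 3 lines, 32 with it in the compared lines alone, 27 with DESeq2 and 6 without the pairing, and 5 to 9 with a pair or library left out. The 1 called H3K27ac site became 0 with scaling to library totals, 0 with DESeq2 and 5 with a replicate block, and 0 to 4 sites were called with a library left out. Some of these fits held fewer libraries, and the cause of these changes was not tested. Some called genes, such as Tnn and Neu2, rest on few reads a library, and the part of depth was not tested.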
